A study of Mus musculus with 16 samples.

Results

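Apcdd1, Axin2, Lef1, Tcf7, Fzd1, Fzd2, Fzd6, Fzd7, Sfrp1 and Dkk3 are 10 receptors, secreted regulators, nuclear factors and response genes of Wnt signalling. They were taken as named genes out of the 27670 genes on the array, with every probe whose accession, current symbol or older symbol maps to them, which gave 17 probes. Of the 10 genes, 8 had a probe bright enough to be tested. Axin2 and Dkk3 each had 1 probe, and it was well above background on 0 of 16 arrays. The question posed was whether cells that gain E-cadherin show a lower output of beta-catenin.

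All arrays measured 4TO7 cells, a mouse mammary carcinoma line, after stable infection with MSCV retroviral vectors. The overexpression groups carried miR-200 Cluster 1 (control: Puro vector), Cluster 2 (control: Hygro vector), Clusters 1+2 (control: Hygro and Puro vectors) or CDH1, which encodes E-cadherin (control: a second Puro vector group). Each of the 8 groups had 2 arrays, repeats A and B, and each array compared the cells with a reference RNA pooled from 11 mouse cell lines. The series calls the repeats biological, but no source used here says if they were separate infections, or if the lines were clones or pools. Nor do the labels say which miRNAs Cluster 1 and Cluster 2 stand for. The cells carried Cy3 in the Cluster 2 and Clusters 1+2 comparisons and Cy5 in the Cluster 1 and CDH1 comparisons, so levels are set side by side only within each set of 8 arrays.

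In canonical Wnt signalling, a Wnt ligand binds a Frizzled receptor and an Lrp coreceptor, the destruction complex of Axin, Apc and Gsk3 is held off, and beta-catenin accumulates. Beta-catenin then enters the nucleus and drives genes together with Lef1 and Tcf factors, among them Axin2 and Apcdd1, which damp the pathway in turn. The same protein also links E-cadherin to the cytoskeleton at cell junctions, and loss of E-cadherin is a known feature of invasive mammary carcinoma cells. Mouse miR-200 miRNAs repress Zeb1 and Zeb2, which in turn repress Cdh1.

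The mature miR-200 sequences are shown because they define the treatment in 3 of the 4 comparisons. They come from RefSeq (GRCm38.p6), 5′ to 3′, with the seed, bases 2 to 8, in capitals. The first 3 share the seed AAUACUG and the other 2 the seed AACACUG, which differ at 1 base. Mir200b, Mir200a and Mir429 lie on chromosome 4, and Mir200c and Mir141 lie on chromosome 6.
mmu-miR-200b-3p: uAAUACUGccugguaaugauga
mmu-miR-200c-3p: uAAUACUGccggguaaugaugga
mmu-miR-429-3p: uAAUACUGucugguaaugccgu
mmu-miR-200a-3p: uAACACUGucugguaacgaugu
mmu-miR-141-3p: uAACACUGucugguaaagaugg

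Of the array's own 60-base probes, a Fzd2 and a Fzd7 probe are shown because part of their sequence is identical. Capitals mark the longest run they share, 14 bases. The Fzd2 probe lies at chr11:102715340-102715399 and the Fzd7 probe at chr1:59735681-59735740 (mm7, both on the plus strand).
Fzd2 probe A_51_P404077: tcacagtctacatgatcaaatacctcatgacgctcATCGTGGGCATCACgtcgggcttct
Fzd7 probe A_51_P142107: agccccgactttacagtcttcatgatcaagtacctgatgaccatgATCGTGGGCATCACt

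Between 12349 and 28320 probes per array were well above background in the cells' channel. The array at 12349 was repeat B of the Puro vector for CDH1, and the next lowest stood at 18240. Repeats of 1 group correlated at 0.938 to 0.981 over the tested genes, each read by its brightest probe, the lowest being that same Puro vector group. Krt8 and Krt18, keratins of simple epithelia, were well above background on 16 of 16 arrays. Over lists of leukocyte, endothelial, adipocyte and neural markers, 0 of 16 tested genes changed in any of the 4 comparisons by limma at an adjusted p under 0.05 (2, 1, 1 and 1 at an unadjusted p under 0.05 in Cluster 1, Cluster 2, Clusters 1+2 and CDH1). Epithelial markers, a list that holds Cdh1, rose in 6 of 8, 5 of 8 and 8 of 8 cases in Cluster 1, Cluster 2 and Clusters 1+2 cells. In CDH1 cells 1 rose, Cdh1 itself, and 1, Krt8, fell. Of 9 tested mesenchymal markers, 1, 1, 5 and 2 fell in Cluster 1, Cluster 2, Clusters 1+2 and CDH1 cells, and 0 rose. Among all genes tested, 8.3%, 2.89%, 25% and 14.5% changed in these comparisons, in the same order. The part of these markers in the Wnt results was not tested.

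Cdh1 mRNA, the gain that the question turns on, was higher in all 4 overexpression groups. Its log2 ratio of cells to reference was 1.21 and 1.29 in Cluster 1 cells, against -0.01 and 0.09 with the Puro vector (log2 fold change 1.21, limma adjusted p 9.1e-05). The Cluster 1 call was kept in 15 of 16 alternative settings and ended in 1. Over these settings the change ran from 0.83 to 2.39, with a highest limma adjusted p of 0.573. Cluster 2 cells read 3.06 and 2.76, against 1.01 and 0.94 with the Hygro vector (1.93, adjusted p 2.72e-06). Clusters 1+2 cells read 4.21 and 3.96, against 1.39 and 1.08 with both vectors (2.86, adjusted p 8.15e-09). In no comparison did the groups overlap. CDH1 cells read 0.57 and 0.77, against 0.03 and 0.09 with their Puro vector, where the probe was not well above background on either array. The fitted log2 fold change in CDH1 cells was 0.61 (adjusted p 0.00558), a size that is uncertain because the control level was near background, and it ran from 0.51 to 2.44 over the alternative settings. Against the Puro vector for Cluster 1, where the probe was well above background on both arrays, it was 0.63 (adjusted p 0.0222). The call ended without repeat B of CDH1 (0.51, adjusted p 0.0689) and with spots marked as outliers kept (0.56, adjusted p 0.437). No label says if the single Cdh1 probe lies within the introduced sequence.

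The genes did not move as a group. In Cluster 1 cells 1 of the 8 tested genes changed (Apcdd1, lower), where 8.3% of all genes tested did. Cluster 2 cells changed 0 of 8, with 2.89% of all genes, and by unadjusted p under 0.05 also 0 of 8. Clusters 1+2 cells changed 2 of 8 (Apcdd1 lower, Fzd6 higher), where 25% of all genes changed. CDH1 cells changed 2 of 8 (Apcdd1 and Fzd6, both higher), where 14.5% of all genes did. The median log2 fold change of the 8 was 0.19, -0.05, -0.01 and -0.16 in these comparisons, against 0.00, 0.00, 0.00 and 0.01 for all genes. With 8 genes, 1 or 2 calls differ little from the share among all genes, so the account goes gene by gene.

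**Figure D1:**
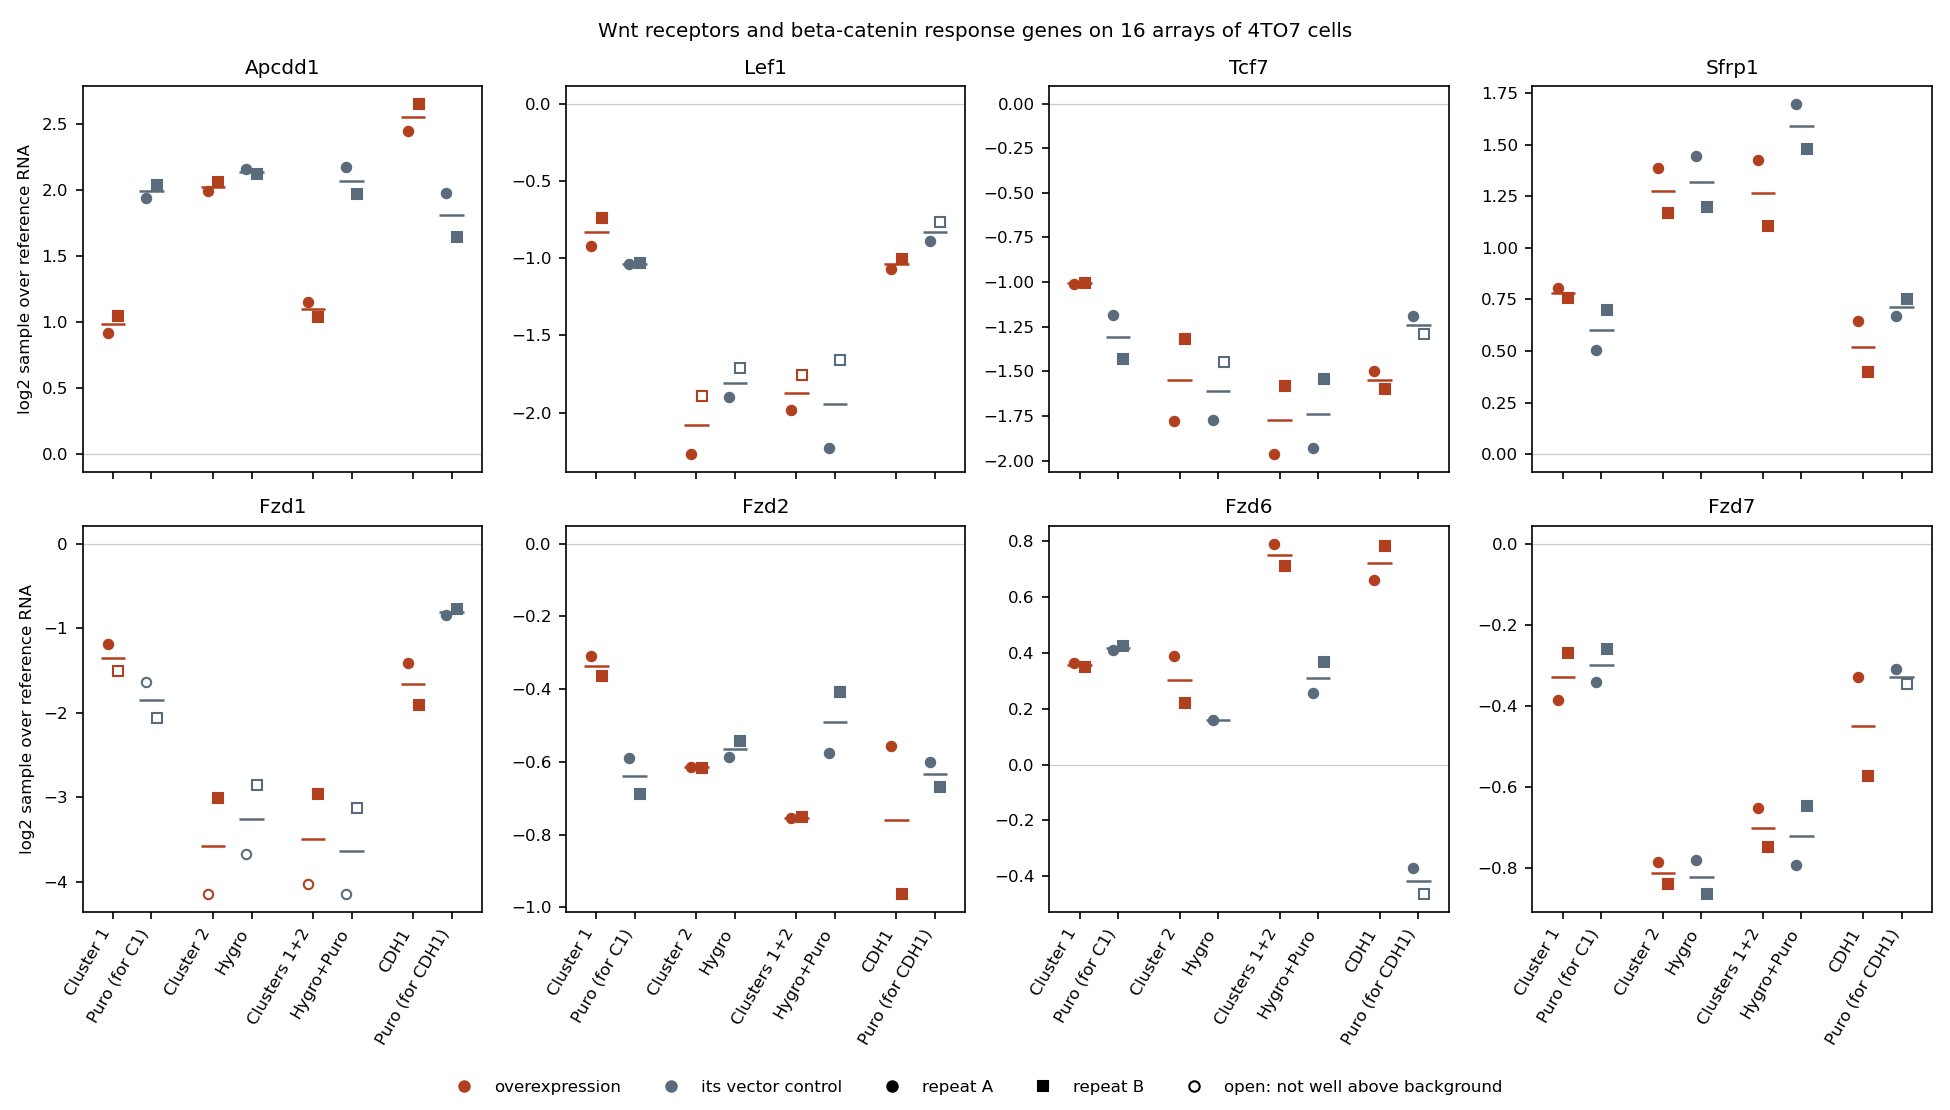
Log2 ratio of 4TO7 cells to reference RNA for the probe that stands for each of the 8 tested genes, on 16 arrays, with each overexpression group left of its vector control. Points are single arrays (circle repeat A, square repeat B, open where the probe was not well above background), bars are group means. Among the Cy5 groups Apcdd1 sits near 1 in Cluster 1 cells and near 2 in the vector controls. Among the Cy3 groups it sits near 1 in Clusters 1+2 cells and near 2 in the vector controls. Fzd6 falls below 0 with the Puro vector for CDH1 and in no other Cy5 group.

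Apcdd1, a membrane-bound Wnt inhibitor that beta-catenin itself induces, gave the clearest result. Its bright probe read 0.92 and 1.05 in Cluster 1 cells, against 1.95 and 2.04 with the Puro vector. In Clusters 1+2 cells it read 1.16 and 1.04, against 2.18 and 1.97 with both vectors. Both groups lay about 1 log2 unit below their controls with no overlap: Apcdd1 fell by 1.01 in Cluster 1 cells (SE 0.11, limma adjusted p 0.000149) and by 0.98 in Clusters 1+2 cells (SE 0.11, adjusted p 3.31e-05). Within the slides the Clusters 1+2 difference was -1.02 on slide 1 and -0.93 on slide 2. Cluster 2 cells read 1.99 and 2.06, against 2.16 and 2.12 with the Hygro vector. That difference of -0.11 missed the threshold (adjusted p 0.726), with a 95% interval from -0.36 to 0.13 that does not reach the size seen in the other miRNA groups. In CDH1 cells the direction was the opposite: 2.45 and 2.66, against 1.98 and 1.65 with the Puro vector, a log2 fold change of 0.74 (SE 0.11, adjusted p 0.000734).

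Ordered by level, the Cy5 groups ran from CDH1 cells (2.55) through the Puro vector for Cluster 1 (1.99) and the Puro vector for CDH1 (1.81) to Cluster 1 cells (0.99). The Puro vectors did not differ past the threshold (0.18, adjusted p 0.408). Among the Cy3 groups the order was Hygro vector (2.14), Hygro and Puro vectors (2.07), Cluster 2 cells (2.03) and Clusters 1+2 cells (1.10), where the values with both vectors overlap those of the Hygro vector and of Cluster 2 cells, while the Hygro vector and Cluster 2 cells do not overlap each other. Because the Puro vector serves 2 comparisons as separate samples on separate slides, each effect was also read against the other Puro vector. Against it Apcdd1 still fell by 0.83 in Cluster 1 cells (adjusted p 0.000582) and rose by 0.56 in CDH1 cells (adjusted p 0.0222). The share of all genes called in these readings was 8.61% and 2.52%. Tested directly, the Apcdd1 effect of Cluster 1 lay 1.75 log2 units below that of CDH1 (-1.75, adjusted p 1.22e-05) and the effect of Clusters 1+2 likewise (-1.72, adjusted p 1.01e-05). It also differed between Clusters 1+2 and Cluster 2 (-0.86, adjusted p 0.00566). In these 3 differences 17.1%, 17.8% and 6.33% of all genes passed, and of the 8 tested genes 2, 2 and 1. A second, dim Apcdd1 probe, A_52_P642726, read between -0.08 and 0.39 over all arrays and showed no call, with log2 fold changes from -0.04 to 0.00. Averaged over both probes, the Apcdd1 changes were -0.52 for Cluster 1 (adjusted p 0.00735), -0.50 for Clusters 1+2 (adjusted p 0.00262) and 0.36 for CDH1 (adjusted p 0.0334). The Cluster 1 call ended when spots marked as outliers were kept (-0.97, adjusted p 0.211), and the CDH1 call ended with the processed signals of the scanner software (0.46, adjusted p 0.115). With marked spots kept the CDH1 change was 1.36.

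**Figure D2:**
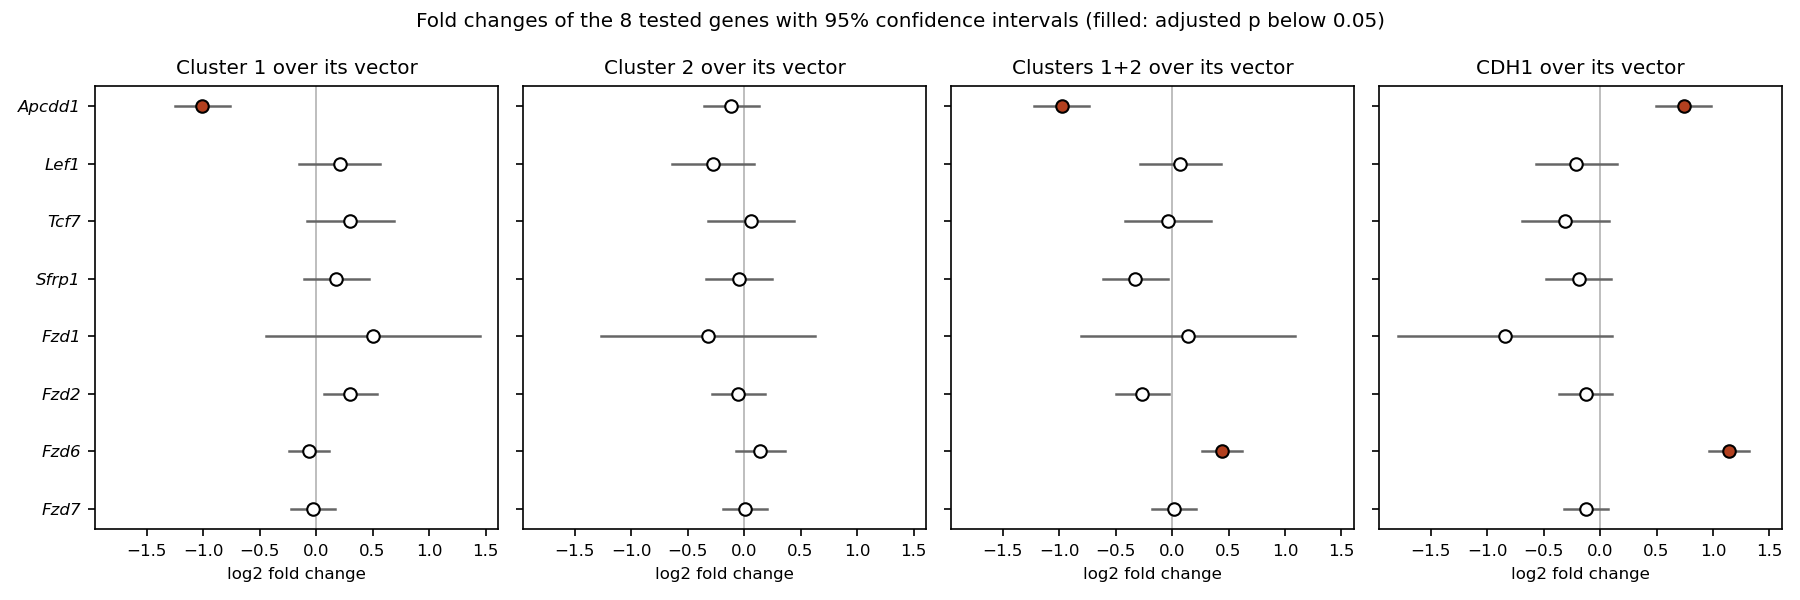
Log2 fold change of each overexpression over its own vector for the 8 tested genes, with 95% confidence intervals; filled points passed an adjusted p of 0.05. Apcdd1 lies near -1 for Cluster 1 and Clusters 1+2, at -0.11 for Cluster 2 and at 0.74 for CDH1, while the intervals of Lef1, Tcf7, Fzd1 and Fzd7 include 0 in all 4 panels.

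Axin2, a scaffold of the destruction complex and a widely used readout of beta-catenin activity, could not be read. Its probe (A_52_P54176, chr11:109059707-109059766, mm7) was not well above background on any array in any group. If dim probes are kept, its log2 fold changes were -0.17, -0.18, 0.17 and 0.02 for Cluster 1, Cluster 2, Clusters 1+2 and CDH1, with adjusted p from 0.347 to 0.973. Beta-catenin output can therefore not be followed through Axin2 on these arrays.

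Lef1 and Tcf7, the DNA-binding partners of beta-catenin, were dim, and the brightest probe of each gave no call. Lef1 (A_51_P420400) read -1.07 and -1.01 in CDH1 cells, against -0.89 and -0.77 with the Puro vector, and Tcf7 (A_52_P244711) read -1.50 and -1.60, against -1.19 and -1.29. Both sets of CDH1 values lay below their controls without overlap, by 0.21 and 0.31 log2 units, yet the tests gave adjusted p of 0.494 and 0.312. In Cluster 1 cells Lef1 read -0.92 and -0.74, against -1.04 and -1.03, and Tcf7 read -1.01 and -1.003, against -1.18 and -1.43. These differences were 0.21 (adjusted p 0.589) and 0.30 (adjusted p 0.404). For Cluster 2 and Clusters 1+2 the log2 fold changes of the 2 genes ran from -0.28 to 0.07, with intervals no wider than -0.64 to 0.45. The slides disagreed in sign for Lef1 in Clusters 1+2 cells, which stood at 0.25 over its control on slide 1 and at -0.10 on slide 2.

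A second probe of each gene was called in CDH1 cells. Lef1 probe A_51_P501145 read -1.92 and -2.14 in CDH1 cells, against -1.44 and -1.25 with the Puro vector. Tcf7 probe A_52_P244702 read -1.04 and -1.42, against 0.06 on the 1 control array that had a value. Fitted over all probes, where 11.9% were called for CDH1, these were -0.68 and -1.29, each with an adjusted p of 0.0409. The Lef1 probe was not well above background on either control array, and the Tcf7 call rests on 1 control array. Against the other Puro vector neither was called, at -0.55 (adjusted p 0.232) and -0.01 (adjusted p 0.995). In Cluster 1 cells the same probes stood at 0.49 and 0.62 (adjusted p 0.203 and 0.442). The remaining Lef1 probe, A_52_P333110, was not well above background on any array.

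**Figure D3:**
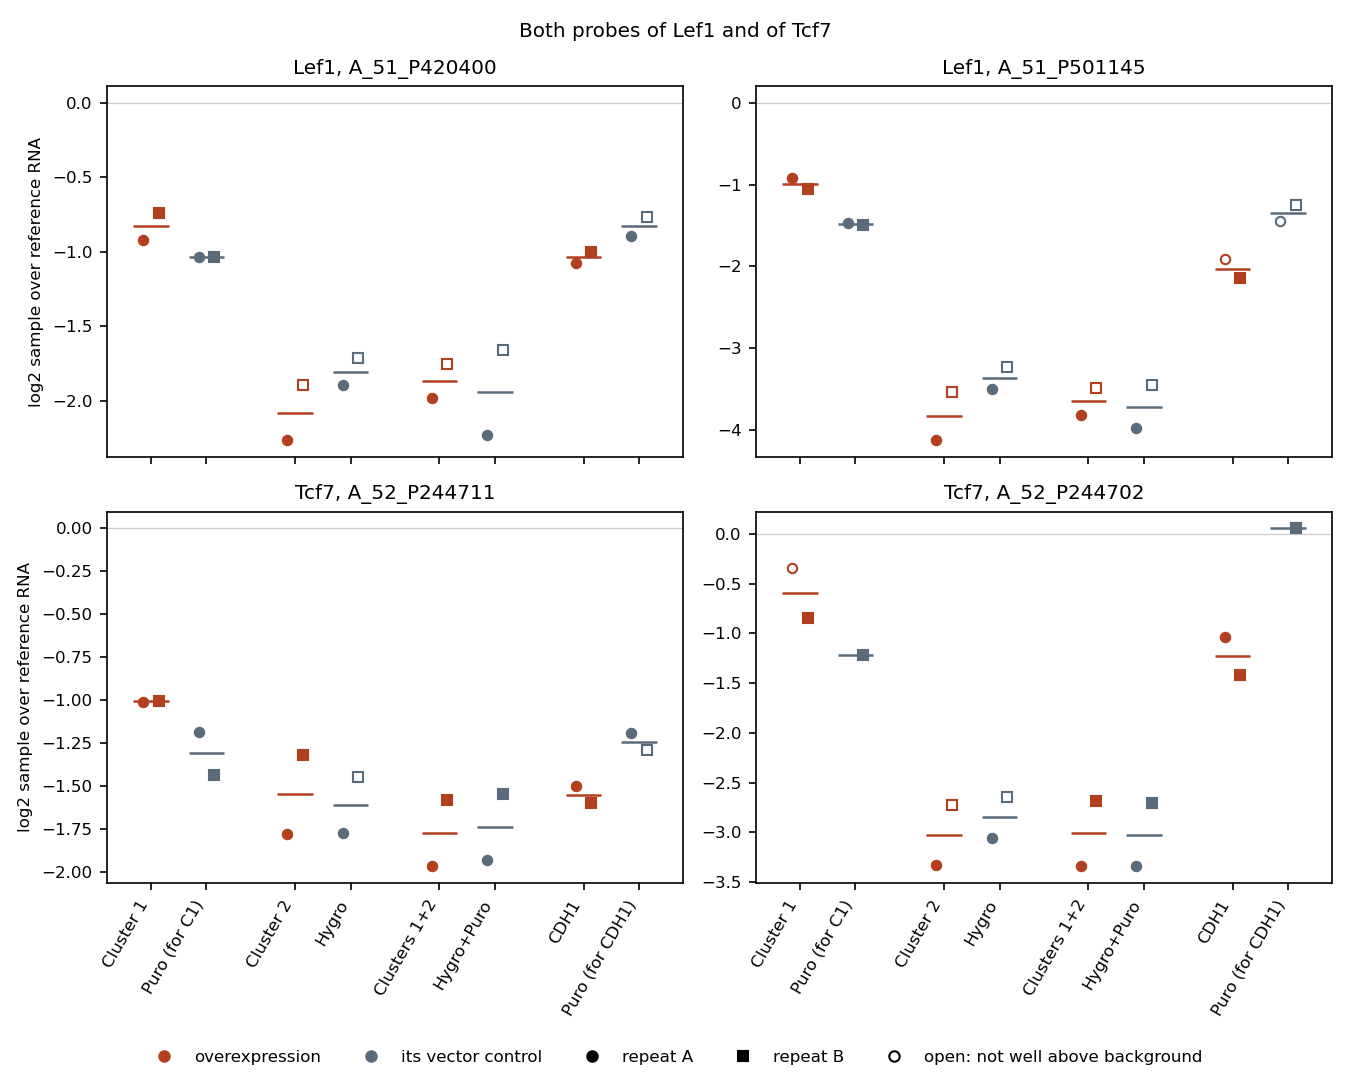
Log2 ratio of cells to reference for both tested probes of Lef1 and of Tcf7, drawn as in the plot of all genes by array. The right-hand probes separate CDH1 cells from the Puro vector for CDH1 by 0.68 and 1.29 log2 units, the left-hand probes by 0.21 and 0.31, and many points are open because the signal was near background.

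Fzd6 is a Frizzled receptor known for planar cell polarity and, in human cells, for holding back canonical Wnt signalling. It has 1 probe (A_52_P217710, chr15:39042879-39042938, mm7). It read 0.66 and 0.78 in CDH1 cells, against -0.37 and -0.46 with their Puro vector, where it was well above background on 1 of 2 arrays. The log2 fold change was 1.14 (SE 0.08, adjusted p 4.02e-06), the largest of the 8 genes in that comparison, and 2.19 with the processed signals of the scanner software. The Puro vector for Cluster 1, however, read 0.41 and 0.42, which is 0.83 above the Puro vector for CDH1 (adjusted p 6e-05, where 10.1% of all genes differed between the Puro vectors, and 1 of the 8). Against the Puro vector for Cluster 1, CDH1 cells were 0.30 higher and no longer past the threshold (adjusted p 0.0835). Cluster 1 cells read 0.36 and 0.35, a difference of -0.06 from their own vector (adjusted p 0.789) and of 0.77 from the other (adjusted p 0.000117). Sample and slide cannot be told apart in the contrast of the Puro vectors.

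In the Cy3 groups Fzd6 read 0.79 and 0.71 in Clusters 1+2 cells, against 0.26 and 0.37 with both vectors. Fzd6 rose by 0.44 there (SE 0.08, adjusted p 0.00168), by 0.54 on slide 1 and 0.34 on slide 2. The call ended with marked spots kept (0.43, adjusted p 0.0702) and on the cells' channel alone (0.36, adjusted p 0.0875). In Cluster 2 cells it read 0.39 and 0.22, against 0.16 on the 1 Hygro array with a value, and the difference of 0.14 missed the threshold (adjusted p 0.559). Its effect differed between Cluster 1 and CDH1 (-1.20, adjusted p 2.81e-05) and between Clusters 1+2 and CDH1 (-0.70, adjusted p 0.00115), and both differences hold the same CDH1 control. Between Clusters 1+2 and Cluster 2 the difference of 0.30 missed the threshold (adjusted p 0.225).

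**Figure D4:**
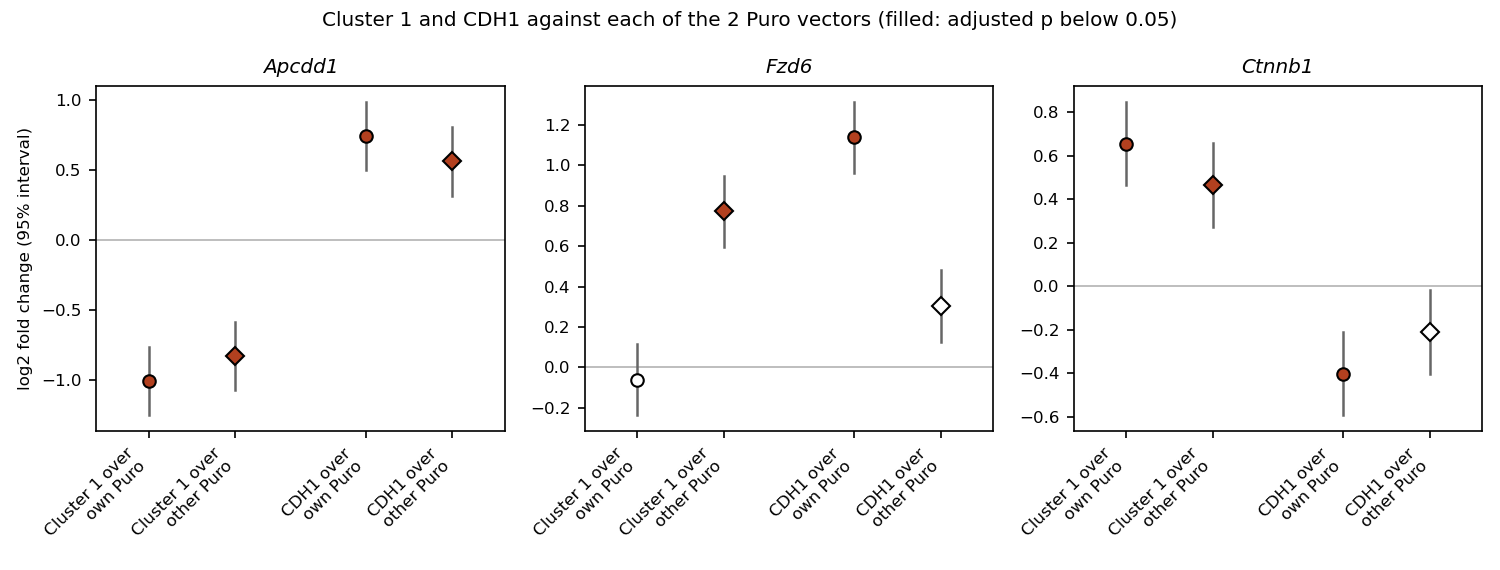
Log2 fold change (95% interval) of Cluster 1 and CDH1 cells over their own Puro vector (circles) and over the other Puro vector (diamonds) for Apcdd1, Fzd6 and Ctnnb1; filled points passed an adjusted p of 0.05. Apcdd1 passes with both controls, while the Fzd6 call moves from CDH1 to Cluster 1 when the controls are exchanged.

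Fzd1, Fzd2 and Fzd7 are Frizzled receptors that can signal through beta-catenin, and none passed the limma threshold in any comparison (Fzd2 alone had an unadjusted p under 0.05, 0.016 in Cluster 1 and 0.0313 in Clusters 1+2 cells). Fzd2 was measured on 16 of 16 arrays and read -0.31 and -0.37 in Cluster 1 cells, against -0.59 and -0.69 with the Puro vector. The groups did not overlap, but the difference of 0.30 had an adjusted p of 0.123. In Clusters 1+2 cells it read -0.75 and -0.75, against -0.57 and -0.41, a difference of -0.26 (adjusted p 0.102) with the opposite sign. Cluster 2 gave -0.05 and CDH1 -0.13. Fzd7 varied little: its brighter probe (A_52_P552665) gave -0.03, 0.01, 0.02 and -0.12 for Cluster 1, Cluster 2, Clusters 1+2 and CDH1, with 95% intervals inside -0.32 to 0.22. The other Fzd7 probe, whose sequence is given above, was well above background on 0 of 8 Cy5 arrays and 5 of 8 Cy3 arrays, so it gives no fold for Cluster 1 or CDH1. It gave 0.08 for Cluster 2 and -0.19 for Clusters 1+2 (adjusted p 0.884 and 0.445). A second Fzd2 probe was well above background on 4 of 16 arrays and was not tested.

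Fzd1 was well above background on 7 of 16 arrays, and on neither array of the Puro vector for Cluster 1, the Hygro vector or the Hygro and Puro vectors. It read -1.41 and -1.91 in CDH1 cells, against -0.85 and -0.78 with the Puro vector, a difference of -0.84 with an interval from -1.79 to 0.10 (adjusted p 0.253). Its repeats lay up to 1.13 log2 units apart within the Cluster 2 group, so the intervals of Fzd1 are the widest of the 8 genes.

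Sfrp1, a secreted Frizzled-related protein that binds Wnt ligands, was measured on 16 of 16 arrays with 1 probe (A_51_P352296, chr8:22232957-22233016, mm7). It read 1.43 and 1.11 in Clusters 1+2 cells, against 1.70 and 1.48 with both vectors. Each repeat was lower than its control on the same slide (differences of -0.27 on slide 1 and -0.37 on slide 2). The groups did not overlap, but the log2 fold change of -0.32 missed the threshold (adjusted p 0.102). With slide as a block, or the repeat letter, which coincides with slide here, Sfrp1 was called (adjusted p 0.0173 and 0.0375). Cluster 1, Cluster 2 and CDH1 gave 0.18, -0.04 and -0.19, with adjusted p from 0.431 to 0.927. A second probe was well above background on 1 of 16 arrays. Dkk3, a secreted member of the Dickkopf family, had its probe (A_52_P220176, chr7:108032840-108032899, mm7) above background on no array, and with dim probes kept its log2 fold changes lay between -0.17 and 0.11 (adjusted p from 0.579 to 0.962).

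Ctnnb1, the mRNA of beta-catenin itself, moved in opposite directions in 2 of the comparisons. It read 1.15 and 1.09 in Cluster 1 cells, against 0.50 and 0.43 with the Puro vector, and rose by 0.66 (adjusted p 0.000623). It read 0.22 and 0.29 in CDH1 cells, against 0.70 and 0.62 with the Puro vector, and fell by 0.40 (adjusted p 0.00851). The effects differed by 1.06 (adjusted p 9.01e-05). In Cluster 2 and Clusters 1+2 cells the differences were 0.09 (adjusted p 0.732) and -0.09 (adjusted p 0.541). Against the other Puro vector the rise in Cluster 1 cells was 0.47 (adjusted p 0.00556), and the difference in CDH1 cells was -0.21 and not called (adjusted p 0.291). Leaving out repeat A of CDH1 or of its Puro vector also ended the CDH1 call, at -0.37 and -0.36 (adjusted p 0.0631 and 0.0606), as did median centring in place of loess (-0.20, adjusted p 0.195) and the cells' channel alone (-0.39, adjusted p 0.202). A further Ctnnb1 probe, A_52_P424585, gave 0.54 and -0.32 for Cluster 1 and CDH1 (adjusted p 0.00128 and 0.0202). The last one, A_52_P472397, gave 0.27 and -0.10 (adjusted p 0.114 and 0.576), and was lower in Clusters 1+2 cells (-0.35, adjusted p 0.0137). Over all probes 6.15% were called for Cluster 1 and 23.8% for Clusters 1+2. The arrays measure mRNA, and where the beta-catenin protein lies in the cell was not measured.

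Set side by side, the Cdh1 log2 fold changes of 1.21, 1.93, 2.86 and 0.61 in Cluster 1, Cluster 2, Clusters 1+2 and CDH1 cells stood beside Apcdd1 changes of -1.01, -0.11, -0.98 and 0.74. The Cdh1 change of Cluster 2, measured with the other dye, was larger in value than that of Cluster 1, a difference that was not tested, and Apcdd1 did not pass the threshold there. In CDH1 cells Cdh1 mRNA was higher, and Apcdd1 was higher by its bright probe (0.74), while its dim probe gave -0.02. The dim probe did not show the falls either, at -0.04 for Cluster 1 and -0.01 for Clusters 1+2. In CDH1 cells the Cdh1 call ended in 2 of 16 alternative settings and the Apcdd1 call in 1 of 16. In Cluster 1 cells each of these calls ended in 1 of 16, and in Clusters 1+2 cells each was kept in 15 of 15. A change in beta-catenin output as such was not tested.

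The wider pathway was described with 143 further genes in 7 lists, of which 117 were tested. Of these 12 changed in Cluster 1 cells (8 higher, 4 lower), 6 in Cluster 2 cells (3 and 3), 41 in Clusters 1+2 cells (16 and 25) and 19 in CDH1 cells (9 and 10). The shares were 10.3%, 5.13%, 35% and 16.2%, against the 8.3%, 2.89%, 25% and 14.5% of all genes given above. The median log2 fold change of the 117 was 0.04, -0.01, 0.00 and -0.04. With the other Puro vector as control, 14 of the 117 were called for Cluster 1, of which 5 were called the same way with both controls and 2, Id2 and Celsr1, the opposite way. For CDH1 6 were called, of which 4 were called the same way with both controls. Of the 78 calls over the 4 comparisons, 51 were kept without any single array, 19 ended without some, and 8 ended without each array in turn: Lgr6, Ephb2 and Celsr1 in Cluster 1, Znrf3, Tnks and Vangl2 in Clusters 1+2, and Tbl1xr1 and Mmp7 in CDH1.

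**Figure D5:**
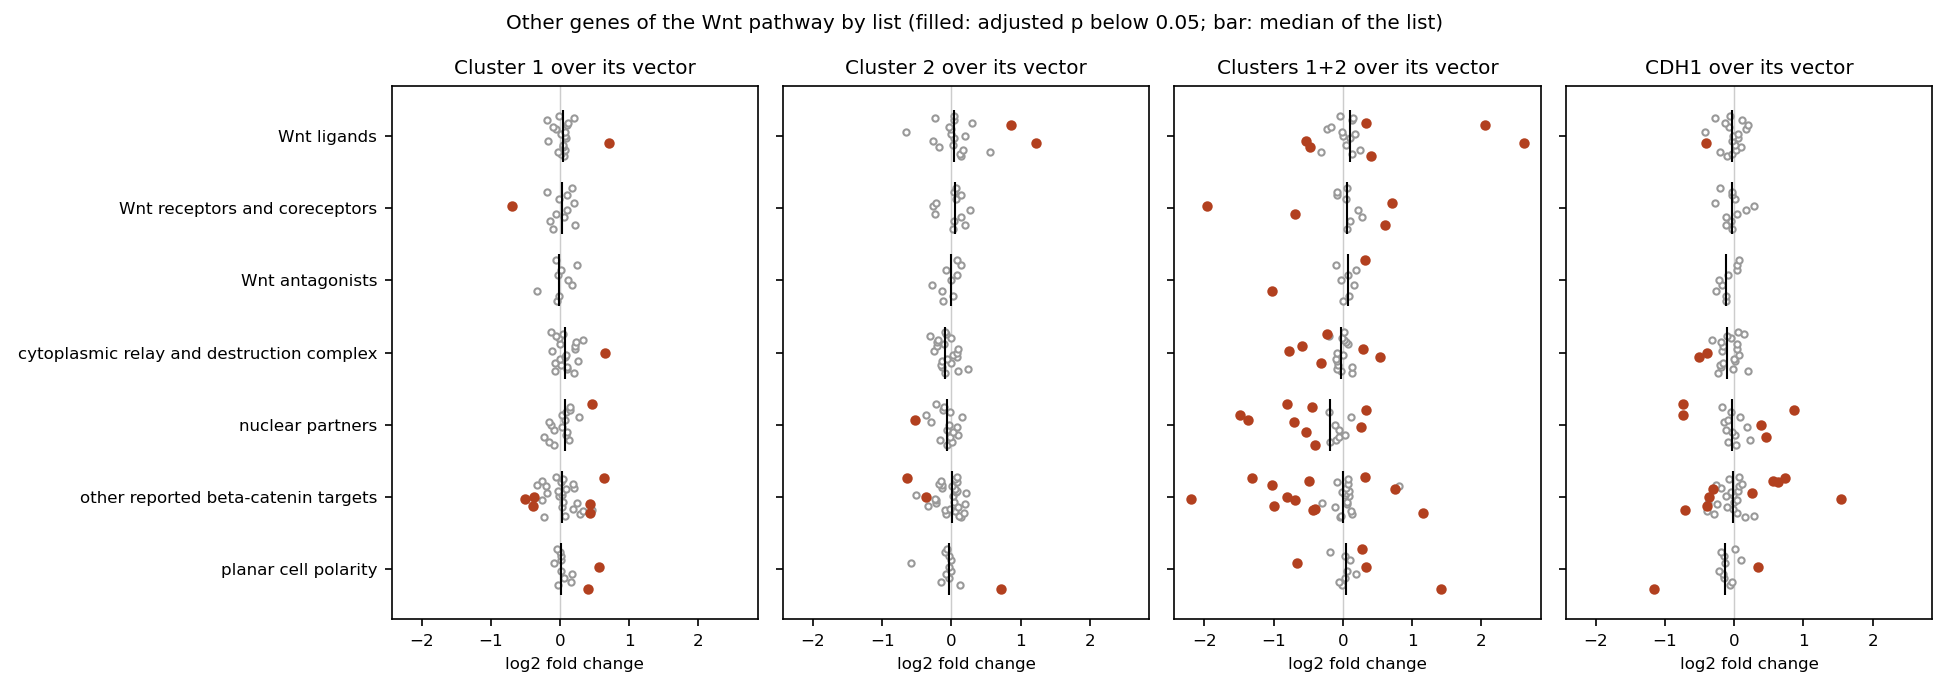
Log2 fold change over the own vector for the tested genes of 7 Wnt pathway lists (points, filled at an adjusted p under 0.05) with the median of each list (bar). List medians stay between -0.19 and 0.10 in all 4 panels, and Clusters 1+2 has the most filled points, 41 of 117.

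Among 19 tested ligands and ligand-processing genes, Wnt10a was called in all 4 comparisons: it rose by 0.71 in Cluster 1, 1.22 in Cluster 2 and 2.62 in Clusters 1+2 cells (adjusted p 0.000902, 1.83e-05 and 3.29e-09). It fell by 0.41 in CDH1 cells (adjusted p 0.0149), a call that ended against the other Puro vector (0.28, adjusted p 0.193), as did the rise in Cluster 1 cells (0.01, adjusted p 0.974). Wnt7a rose by 0.86 in Cluster 2 and by 2.05 in Clusters 1+2 cells. In Clusters 1+2 cells Porcn, which acylates Wnt ligands, rose by 0.40, Wnt7b rose by 0.33, and Wnt10b and Wls, the Wnt carrier, fell by 0.53 and 0.47. No other ligand gene changed. Among all genes 8.3%, 2.89%, 25% and 14.5% changed in Cluster 1, Cluster 2, Clusters 1+2 and CDH1 cells.

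Of 12 further receptors and coreceptors, 4 changed in Clusters 1+2 cells, where 25% of all genes did. Lgr6, an R-spondin receptor, fell by 1.96 and Fzd9 by 0.69, while Fzd4 rose by 0.61 and the coreceptor Lrp5 by 0.72. Lgr6 also fell by 0.69 in Cluster 1 cells (adjusted p 0.0351), a call that ended without any 1 of the 4 arrays and against the other Puro vector (-0.13, adjusted p 0.808). By limma 0 of 12 changed in Cluster 2 or CDH1 cells (2 and 1 at an unadjusted p under 0.05). Of 9 further antagonists 2 changed by limma, both in Clusters 1+2 cells, where 25% of all genes did. In the other groups 0 of 9 changed (1, 0 and 0 at an unadjusted p under 0.05 in Cluster 1, Cluster 2 and CDH1). In Clusters 1+2 cells Notum, a secreted Wnt deacylase, fell by 1.03 and Znrf3, a ligase that removes Frizzled receptors, rose by 0.33.

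In the cytoplasmic relay and destruction complex 21 genes were tested. Of these 2 rose and 4 fell in Clusters 1+2 cells, where 25% of all genes changed. In CDH1 cells 0 rose and 2 fell, where 14.5% of all genes changed. In Clusters 1+2 cells Ctnnbip1, which blocks beta-catenin from binding Tcf factors, fell by 0.78 (adjusted p 1.07e-06), Dvl2 fell by 0.59, and Csnk1e and Dvl1 rose by 0.54 and 0.29. Cby1 and Tnks fell by 0.32 and 0.23. Csnk1e, a casein kinase of the pathway, fell by 0.51 in CDH1 cells (-0.16, not called, against the other Puro vector), where Ctnnb1 was the only other gene of the list called. By limma Cluster 1 cells had Ctnnb1 alone, and Cluster 2 cells 0 of 21 (1 at an unadjusted p under 0.05). The shares of all genes called there were 8.3% and 2.89%.

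Among 17 tested nuclear partners, Tcf7l2, the Tcf factor studied most in intestine, fell by 1.37 in Clusters 1+2 cells (adjusted p 8.64e-07) and by 0.52 in Cluster 2 cells (adjusted p 0.0158), where the call ended in 3 of 4 fits without a single array. Clusters 1+2 cells also had lower Tle2 (-1.49), Tle6 (-0.81), Tcf7l1 (-0.70), Ep300 (-0.53) and Tle5 (-0.44). Tle2 is a corepressor and Ep300 a coactivator. Altogether 7 of 17 fell and 2 rose there, where 25% of all genes changed. In CDH1 cells, where 14.5% of all genes changed, Tle4 rose by 0.87, and Ctbp1 and Tbl1xr1 rose by 0.45 and 0.38. Tle6 and Tle2 each fell by 0.75 there. Against the Puro vector for Cluster 1 the falls of Tle6 and Tle2 were still called (-0.36 and -0.50), and Tle4 (-0.04, adjusted p 0.884), Ctbp1 (0.01, adjusted p 0.983) and Tbl1xr1 (-0.03, adjusted p 0.962) were not. Tle6 rose by 0.46 in Cluster 1 cells, a call that ended against the other Puro vector (0.07, adjusted p 0.615).

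Other genes reported as beta-catenin targets went both ways in each comparison with more than 2 calls. Of 30 tested, 3 rose and 3 fell in Cluster 1 cells, 0 and 2 in Cluster 2 cells, 3 and 9 in Clusters 1+2 cells, and 5 and 4 in CDH1 cells. Of all genes, 8.3%, 2.89%, 25% and 14.5% changed in these comparisons. Id2, an inhibitor of basic helix-loop-helix factors, fell by 2.19 in Clusters 1+2 and by 0.51 in Cluster 1 cells and rose by 1.55 in CDH1 cells (adjusted p 6.54e-09, 0.00504 and 6.14e-07). Tnfrsf19 rose by 0.64 in Cluster 1 cells, fell by 0.64 and 1.32 in Cluster 2 and Clusters 1+2 cells, and rose by 0.73 in CDH1 cells. Jun fell in all 4, by 0.37, 0.36, 0.81 and 0.37. In Clusters 1+2 cells Ccn1 rose by 1.15 and Myc by 0.75, and Ephb2 fell by 0.99. In CDH1 cells Plaur rose by 0.63, Sox9 by 0.56 and Ccn5 fell by 0.72. Cluster 1 cells had higher Ephb3 and Ccn1, each by 0.43, and lower Ephb2, by 0.39. Against the Puro vector for CDH1 the fall of Ephb2 was called (-0.53), Ephb3 (0.22, adjusted p 0.187) and Ccn1 (0.29, adjusted p 0.151) were not, and Id2 was called in the opposite direction (0.37, adjusted p 0.0279). Against the Puro vector for Cluster 1, Tnfrsf19 (0.08), Sox9 (-0.12), Jun (-0.02), Plaur (0.30) and Ccn5 (-0.31) were not called in CDH1 cells and Id2 still was (0.67, adjusted p 0.00267).

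Of 12 tested planar cell polarity genes, Celsr1, an atypical cadherin of that pathway, rose by 0.41, 0.71 and 1.41 in Cluster 1, Cluster 2 and Clusters 1+2 cells and fell by 1.16 in CDH1 cells. Against the other Puro vector the Cluster 1 change was a called fall (-0.37, adjusted p 0.0341) and the CDH1 change was not called (-0.38, adjusted p 0.0653). Prickle1 rose by 0.56, 0.33 and 0.35 in Cluster 1, Clusters 1+2 and CDH1 cells. Prickle2 fell by 0.66 and Vangl2 rose by 0.28 in Clusters 1+2 cells. The list had 2, 1, 3 and 1 genes higher and 0, 0, 1 and 1 lower in Cluster 1, Cluster 2, Clusters 1+2 and CDH1 cells. Among all genes 8.3%, 2.89%, 25% and 14.5% changed in these comparisons.

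The genes whose pattern was most like that of Apcdd1, by Pearson correlation over 16 arrays with each comparison centred on its mean, were Nuf2 (0.972), Cbx1 (0.969) and Il11 (0.969) out of 13203 genes with a symbol. Nuf2, a kinetochore protein, had log2 fold changes of -0.63, -0.08, -0.48 and 0.46 in Cluster 1, Cluster 2, Clusters 1+2 and CDH1 cells. Il11, a cytokine, had -1.26, -0.11, -1.84 and 1.11. For Fzd6 they were Gadd45gip1 (0.976), Arpp19 (0.968) and Nhp2 (0.961), over the 15 arrays with a Fzd6 value. These correlations describe arrays that share groups and slides, and carry no test.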

How the data were processed

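Per the file headers, each deposited scanner file gives spot intensity for 2 channels, read by version 9.5.3.1 of Agilent Feature Extraction from design 014868. The authors also deposited ratio values per spot in a series matrix, which matched the processed intensity of cells over reference on 16 of 16 arrays (largest log10 difference 8.06e-08, column medians 0.903 to 1.175), and were used only for that check. Background was corrected with normexp (offset 50) and arrays normalised by loess in limma 3.58.1 (R 4.3.3, data.table version 1.17.8), leaving out spots the software marked. The deposited log10 ratio was not used here. Values are log2 cells over reference. A probe was kept (26940) if both arrays of some group had it well above background in the cells' channel, and the brightest in that channel stood for each of 18900 genes. Requiring unmarked spots for this, and choosing by the cells' channel, were decided after first values had been seen. A limma model of 8 group means (moderated test, two-sided, threshold 0.05 on p adjusted by Benjamini-Hochberg across genes) gave each comparison, each difference of effects and the contrast of the Puro vectors. A second fit used all probes. p-values cover the spread between repeats, pooled over groups, and 2 arrays per group limit the precision. The procedure was tested on simulated data. Members and lists were chosen with earlier results of these data known. All 10 genes are given; of each pathway list at most 6 called genes per comparison are named, by smallest adjusted p. Repeats of the same letter deviated together at a correlation of 0.27 and 0.33 in Cluster 2 and Clusters 1+2, where letters coincide with slides, and at -0.01 and 0.01 in Cluster 1 and CDH1. Alternatives covered background, marked spots, normalisation, filter, probe summary, repeat letter and slide as blocks, single arrays left out and exchanged Puro vectors.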

Additional observations from a re-analysis of the deposited data

Results flagged for a closer look

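Effects that differed between 2 comparisons by a test of the difference itself (limma, adjusted p under 0.05 over all genes) are given as first effect minus second, in log2 units. Cluster 1 minus CDH1 was -1.75 for Apcdd1, -1.20 for Fzd6, 0.60 for Cdh1 and 1.06 for Ctnnb1. Among pathway genes called in opposite directions in these comparisons it was 1.12 for Wnt10a, 1.21 for Tle6, -2.05 for Id2 and 1.57 for Celsr1.

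Clusters 1+2 minus CDH1 was -1.72 for Apcdd1, -0.70 for Fzd6 and 2.24 for Cdh1. For pathway genes called in opposite directions it was 3.03 for Wnt10a, 1.05 for Csnk1e, 1.06 for Myc, -2.04 for Tnfrsf19, -3.74 for Id2, -1.05 for Sox9 and 2.57 for Celsr1. Clusters 1+2 minus Cluster 2 was -0.86 for Apcdd1 and 0.92 for Cdh1. The differences with CDH1 compare arrays on different slides, and that of Clusters 1+2 with CDH1 compares different dyes as well. The differences with CDH1 move with the choice of Puro vector. The 2 Puro vectors differed by 0.83 for Fzd6. Exchanging them gave 0.37 for Id2, -0.37 for Celsr1 and 0.01 for Wnt10a in Cluster 1 cells, against -0.51, 0.41 and 0.71 with their own vector. In CDH1 cells it ended the calls of Wnt10a, Csnk1e, Myc, Tnfrsf19, Sox9 and Celsr1, and those of Id2, Tle6 and Apcdd1 were kept. With 2 arrays per group no test for a single array far from the others could be made.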

How the results depend on the processing

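Each comparison rests on 2 arrays per group, which limits what can be called, and dim probes (Lef1, Tcf7, Fzd1) carry the widest intervals. Of 495 recomputed fold changes of the 8 tested genes, 425 kept direction and side of the threshold, 5 lost a call, 14 gained one and 51 changed sign. Of 1261 for called pathway genes, 987 were kept, 268 lost their call and 6 changed sign. The cause was not tested unless stated.

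Genes called (1568, 544, 4719 and 2748 for Cluster 1, Cluster 2, Clusters 1+2 and CDH1; 3231, 3357 and 1192 for the differences Cluster 1 minus CDH1, Clusters 1+2 minus CDH1 and Clusters 1+2 minus Cluster 2; 1908 between the Puro vectors) moved by over 1.5 times as follows. With marked spots kept they were 192, 78, 2643 and 1255, then 1162, 1653, 277 and 528. Processed signals gave 190 for Cluster 2, 2696 for Clusters 1+2, and 2212 and 348 for its differences from CDH1 and Cluster 2. Scaled spread gave 75, 1851, 1913 and 123 for the same results, and the cells' channel alone (added after seeing the data) 154, 2195, 2053 and 319. Offset 10 gave 264 for Cluster 2 and 581 for Clusters 1+2 minus Cluster 2, and median centring 2300 and 2382. Median centring moved the median of all genes to 0.14 in Cluster 2 and 0.11 in CDH1, and the share of calls that were higher to 93.7% and 82.8%, against 62.7% and 53.2% with loess. That share moved by over 10 points in Cluster 1 too with median centring (69.1%, against 58.7%), and in Cluster 2 with scaled spread (89.3%), marked spots kept (75.6%) and the cells' channel alone (78.6%). CDH1 against the other Puro vector gave 476. Leaving out single arrays gave 679 to 985 for Cluster 1, 239 to 804 for Cluster 2, 1538 to 2065 for CDH1 and 1110 to 1438 between the Puro vectors, and the counts for Cluster 2 were 239 without repeat B of the Hygro vector and 297 without repeat B of Cluster 2. The fall was over 1.5 times without any array of the Cluster 1 comparison, and without repeat B of CDH1 (1538) or of its Puro vector (1744).

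Of the 8 tested genes (1, 0, 2 and 2 called), Cluster 1 had 0 and Clusters 1+2 had 1 with marked spots kept, CDH1 had 1 with processed signals and 1 against the other Puro vector, and Cluster 1 had 2 against the other Puro vector. On the cells' channel alone Cluster 1 had 2 (with Sfrp1, 0.56) and Clusters 1+2 had 1, and Sfrp1 was called in CDH1 (-1.001, adjusted p 0.00113). Choosing the brightest probe over both channels (also added) gave CDH1 4, with the Lef1 and Tcf7 probes described above. With the repeat letter as a replicate block, Cluster 1 had 2 (with Fzd1, 0.50) and CDH1 had 4 (with Tcf7, -0.31, and Fzd1, -0.84), and with slide as a block likewise 2 (with Tcf7, 0.30) and 4. Sfrp1 was called lower in Clusters 1+2 cells under both blocks (-0.32, adjusted p 0.0375 and 0.0173). The replicate block allows no contrast of the Puro vectors, and the letters are tied to slides only in the Cy3 groups.

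Sign changes among the 8 were of values not called, except Fzd6 in Cluster 1, which was called at 0.77 against the other Puro vector. With marked spots kept, Fzd7 was 0.015 in Cluster 1, Tcf7, Fzd7 and Sfrp1 were -0.38, -0.23 and 0.29 in Cluster 2, and Sfrp1 was 0.076 in CDH1. Processed signals gave Fzd7 0.048 in Cluster 1, Fzd1, Fzd2 and Fzd7 0.23, 0.0073 and -0.012 in Cluster 2, Fzd1 and Fzd7 -0.11 and -0.076 in Clusters 1+2, and Lef1, Fzd7 and Sfrp1 0.17, 0.086 and 0.053 in CDH1. Median centring gave Apcdd1, Fzd2 and Sfrp1 0.18, 0.20 and 0.094 in Cluster 2, Lef1 and Fzd7 -0.00074 and -0.047 in Clusters 1+2, and Fzd2 and Fzd7 0.035 and 0.087 in CDH1. The mean over probes gave Fzd7 0.067 in Cluster 1 and -0.086 in Clusters 1+2, and Tcf7 -0.057 in Cluster 2. Brightest over both channels gave Tcf7 -0.18 in Cluster 2 and 0.013 in Clusters 1+2, scaled spread Tcf7 0.050 in Clusters 1+2, and the cells' channel Fzd7 -0.031 in Cluster 2 and 0.55 in CDH1. With exchanged Puro vectors Fzd1 was -0.54 in Cluster 1 and 0.20 in CDH1, Id2 and Celsr1 were 0.37 and -0.37 in Cluster 1, and Wnt10a, Tle4, Tbl1xr1 and Sox9 were 0.28, -0.042, -0.027 and -0.12 in CDH1. Without single arrays, Fzd7 ran from -0.086 to 0.029 in Cluster 1, Tcf7 from -0.17 to 0.29, Fzd1 from -0.88 to 0.25, Fzd7 from -0.032 to 0.052 and Sfrp1 from -0.17 to 0.078 in Cluster 2. In Clusters 1+2 Lef1 ran from -0.21 to 0.36, Tcf7 from -0.23 to 0.16, Fzd1 from -0.39 to 0.67 and Fzd7 from -0.053 to 0.093, and in CDH1 Fzd2 ran from -0.33 to 0.079.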
